A study of Mus musculus with 2 samples.

Results

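A set of 9 genes of type 2 immunity was followed across the cells of mouse oral tumours: the cytokines interleukin-4 (Il4), interleukin-5 (Il5) and interleukin-13 (Il13), the receptor chains Il4ra and Il13ra1, the transcription factors Gata3 and Rora, the interleukin-33 receptor ST2 (Il1rl1) and the growth factor amphiregulin (Areg). They were chosen by name, and all 9 were found among the 32285 genes of each of the 2 matrices. The tumours grew from MOC2, a mouse oral carcinoma cell line, placed with Matrigel under the flank skin of female C57BL/6 mice 6 to 7 weeks old. Each arm had 10 mice. Vehicle mice received 5% DMSO with a 30% (w:v) Captisol solution, and treated mice received Momordicine-I in that vehicle at 30 mg/kg, by intraperitoneal injection once daily. Tumours of 3 mice of each arm were pooled, stained with an anti-CD45 antibody and propidium iodide, sorted, and made into 1 single-cell 3' library per arm. With 1 library per group there was no replicate and no test between the groups. Every interval given is a 95% counting interval, which covers counting error only and treats UMIs (unique molecular identifiers, 1 per captured transcript) as independent, although UMIs of 1 cell are not. The pooled mice, the library and the treatment cannot be told apart, and neither can fewer RNA molecules per cell and fewer cells of a kind in any sum over all cells.

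Type 2 immunity is the arm of the immune system known for responses to worms, allergens and tissue damage. Interleukin-33, released by damaged epithelium and stroma, binds ST2 on group 2 innate lymphoid cells (ILC2), mast cells, basophils, T helper 2 cells and tissue regulatory T cells (Treg), which answer with interleukin-5, interleukin-13, interleukin-4 or amphiregulin. GATA3 and RORα are needed for ILC2 to form, and GATA3 drives the cytokine genes in T helper 2 cells. Interleukin-4 and interleukin-13 act on cells with IL-4Rα, which pairs with IL-13Rα1 on myeloid and epithelial cells and signals through STAT6, while amphiregulin acts on the epidermal growth factor receptor of epithelial and tumour cells.

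The cytokine genes lie in a cluster, and their upstream sequences are shown here with those of Il1rl1 and Areg because the values below turn on these 5 genes. In the GRCm38 annotation Il4 (chromosome 11, 53602982 to 53618669, minus strand), Il13 (chromosome 11, 53631324 to 53634702, minus strand) and Il5 (chromosome 11, 53720794 to 53725106, plus strand) span 122.1 kb. Il1rl1 lies on chromosome 1 at 40429570 to 40465415 and Areg on chromosome 5 at 91139599 to 91148432, both on the plus strand. The 250 bases upstream of a transcript start, from RefSeq on GRCm38.p6 and written 5′ to 3′ on the gene's strand, are, for Il5 (chr11:53720544-53720793, plus), Il13 (chr11:53634703-53634952, minus), Il4 (chr11:53618666-53618915, minus), Il1rl1 (chr1:40429320-40429569, plus) and Areg (chr5:91139349-91139598, plus):
Il5: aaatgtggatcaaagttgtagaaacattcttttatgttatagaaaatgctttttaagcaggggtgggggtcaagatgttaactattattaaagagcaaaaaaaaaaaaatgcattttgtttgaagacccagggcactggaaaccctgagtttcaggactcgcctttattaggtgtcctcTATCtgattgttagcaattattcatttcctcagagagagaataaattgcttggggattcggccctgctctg
Il13: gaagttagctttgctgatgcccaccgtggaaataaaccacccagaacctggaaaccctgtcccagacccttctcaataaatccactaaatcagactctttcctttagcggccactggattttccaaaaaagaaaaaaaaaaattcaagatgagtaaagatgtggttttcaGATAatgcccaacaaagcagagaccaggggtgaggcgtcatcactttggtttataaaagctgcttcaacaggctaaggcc
Il4: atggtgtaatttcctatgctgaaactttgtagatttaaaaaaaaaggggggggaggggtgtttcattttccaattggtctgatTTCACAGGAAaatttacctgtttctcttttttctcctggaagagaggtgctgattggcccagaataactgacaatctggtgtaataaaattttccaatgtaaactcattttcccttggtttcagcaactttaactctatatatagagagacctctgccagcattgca
Il1rl1: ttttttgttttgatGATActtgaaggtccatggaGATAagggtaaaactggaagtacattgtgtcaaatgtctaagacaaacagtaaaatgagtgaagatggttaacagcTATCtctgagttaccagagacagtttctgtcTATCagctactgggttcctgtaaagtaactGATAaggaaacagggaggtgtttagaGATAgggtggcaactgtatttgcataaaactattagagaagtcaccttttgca
Areg: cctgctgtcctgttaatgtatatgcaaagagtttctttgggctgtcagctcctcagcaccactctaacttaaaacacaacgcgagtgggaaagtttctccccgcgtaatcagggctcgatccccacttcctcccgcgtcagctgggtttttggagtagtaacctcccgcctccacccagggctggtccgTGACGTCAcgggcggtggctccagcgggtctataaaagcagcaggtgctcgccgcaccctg
Capitals mark matches, on either strand, to GATA (the core letters bound by GATA factors, TATC on the other strand), to TTCNNNNGAA (a spacing bound by STAT6) and to TGACGTCA (the cyclic AMP response element). The Il1rl1 window held 6 GATA matches, the Il5 window 1 at 71 bases before the start and the Il13 window 1 at 80 bases before it. The Il4 window shown held TTCACAGGAA at 167 bases before the start, and the Areg window held TGACGTCA at 61 bases before it. Il4 and Il1rl1 each had another window that is not printed here. That of Il4 (chr11:53617339-53617588) held 3 GATA matches and that of Il1rl1 (chr1:40439379-40439628) held 2. GATA occurred in 6 of the 11 member windows, of 5 members, and in 53.6% of the 32851 windows of the annotation. TTCNNNNGAA occurred in 5.85% and TGACGTCA in 1.55% of those windows, and no 2 matches shown overlap. A match describes letters and not a bound site. The other 4 members are Il4ra (chromosome 7, 125552120 to 125579474, plus strand), Il13ra1 (chromosome X, 36112110 to 36171259, plus strand), Gata3 (chromosome 2, 9857078 to 9890034, minus strand) and Rora (chromosome 9, 68653786 to 69388246, plus strand).

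Barcodes with at least 200 genes and at most 10% mitochondrial UMIs numbered 3364 in the vehicle library and 4370 in the Momordicine-I library, with a median of 5760 and 5002 UMIs per cell. They were clustered without the 9 genes into 24 clusters, which were named only from markers. Neutrophil-like cells made up 58.3% and 59.4% of cells. The classes that held most UMIs of the 3 cytokines, or ST2 at its highest levels, were rare: 64 and 46 basophil-like cells, 95 and 75 Treg-like cells, 5 and 14 mast cell-like cells, and 65 and 47 cells of a lymphocyte cluster led by Ctla2a. None of the markers of eosinophils, another source of interleukin-4, gave a UMI in the cluster led by Ctla2a. Throughout, a level is UMIs per 1000000 UMIs of the cells named (CPM), the first value of a pair is vehicle and the second Momordicine-I, and a ratio is Momordicine-I to vehicle.

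The cluster led by Ctla2a had the marks of ILC2 and of T cells together. Its leading genes by fold included Ctla2a, Gata3, Tnfsf8, Calca, Rora and Il1rl1, and 10 of 12 ILC2 markers were each found in at least 10% of its cells. However, 39 of 65 vehicle and 33 of 47 Momordicine-I cells held a UMI of the T cell receptor genes Cd3d, Cd3e or Trac, against 90 of 95 and 67 of 75 Treg-like cells and 5 of 64 and 1 of 46 basophil-like cells. NK-like cells lay between these, with such a UMI in 54 of 98 and 58 of 132 cells. The cluster was therefore not called ILC2-like. T cell markers summed to 0.250% and 0.205% of its UMIs and ILC2 markers to 0.220% and 0.280%. The median cell had 0.222% and 0.235% of the former and 0.211% and 0.207% of the latter. ILC2 markers also summed to 0.324% and 0.313% in gamma-delta T-like cells and to 0.307% and 0.253% in Treg-like cells. Their sum thus did not set the cluster led by Ctla2a apart. In that cluster NK markers summed to 0.209% and 0.00122%, with 0 in the median cell of either library. Neutrophil markers summed there to 0.141% and 0.258%, with 0.0831% and 0.0704% in the median cell. The part of both in the values of the cluster was not tested. In Treg-like cells neutrophil markers summed to 0.164% and 0.447%, with 0.110% and 0.112% in the median cell, and their part was not tested either. Of all vehicle cells 1.93% lay in it, and of all Momordicine-I cells 1.08% (0.557, 0.374 to 0.823). When cells were instead classed singly by ILC2 marker score, that ratio was 0.937. Basophil-like cells stood at 1.90% and 1.05% (0.553, 0.370 to 0.821), and Treg-like cells at 2.82% and 1.72% (0.608, 0.443 to 0.831). Gamma-delta T-like cells, another class rich in Rora, went the other way, from 1.61% to 4.0% (2.49, 1.83 to 3.45), though at Leiden resolution 0.5 the ratio was 1.43.

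**Figure D1:**
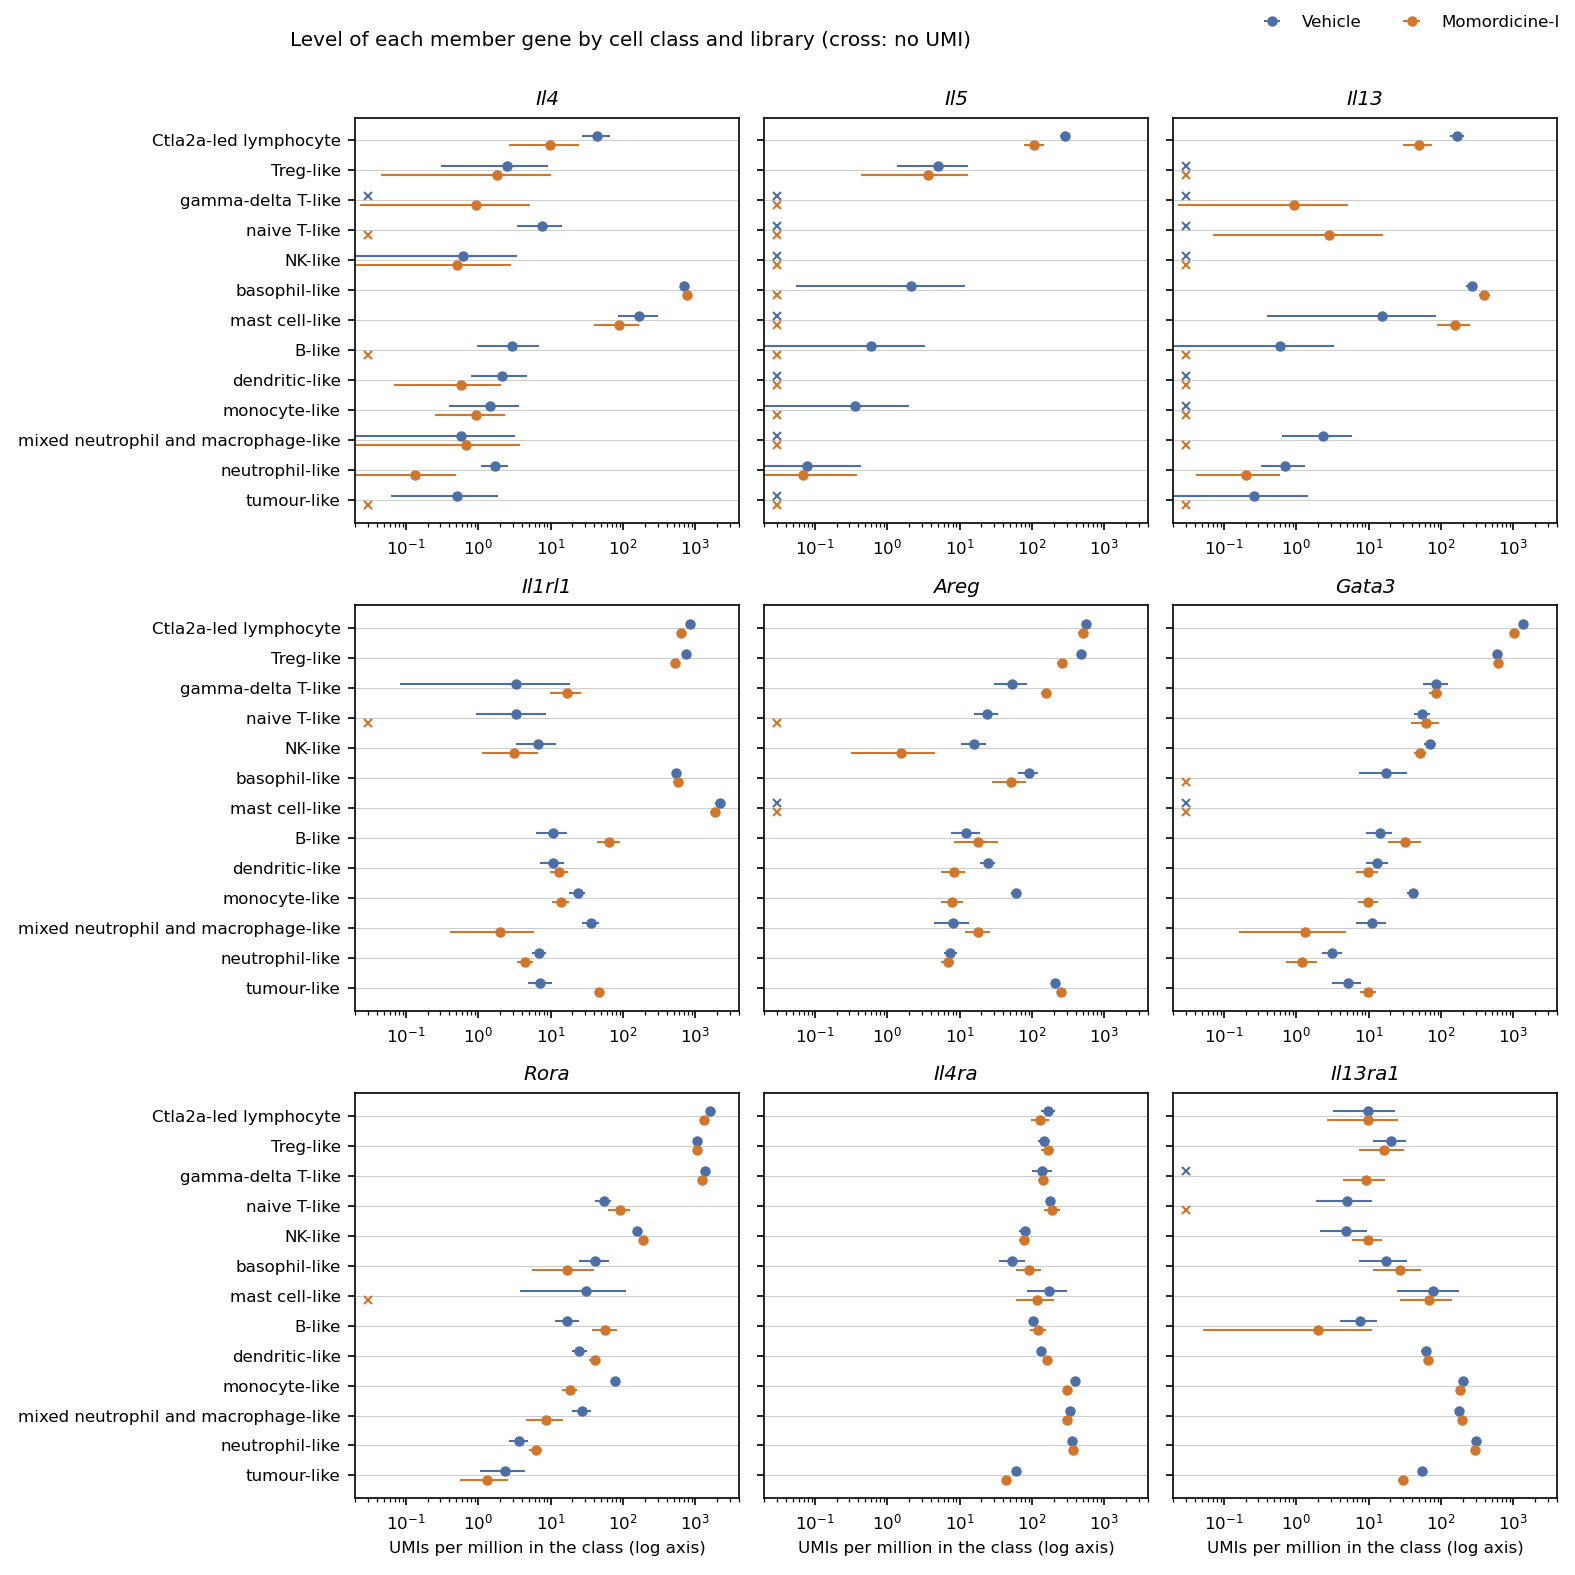
Level of each of the 9 genes (CPM, log axis) in the named classes of the vehicle and Momordicine-I libraries, with bars for 95% counting intervals. Il5 is highest in the cluster led by Ctla2a, Il4 in basophil-like cells, and Il4ra and Il13ra1 in myeloid classes.

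Over all cells, the 3 cytokines, Gata3 and Il1rl1 were lower in the Momordicine-I library, and the receptor chains, Rora and Areg were near the vehicle level. Il4 stood at 12.6 and 6.58 CPM (0.522, 0.446 to 0.611), Il5 at 4.67 and 1.44 CPM (0.308, 0.224 to 0.419) and Il13 at 7.17 and 4.20 CPM (0.585, 0.477 to 0.715). Gata3 stood at 58.0 and 32.7 CPM (0.563, 0.524 to 0.604) and Il1rl1 at 60.0 and 38.5 CPM (0.641, 0.600 to 0.686). These 5 of the 9 genes were lower by 1.5-fold or more and 0 were higher, against 6.90% of the 14930 measured genes lower and 6.78% higher. With likely doublets left out the Il1rl1 ratio was 0.681, which is short of that fold. Rora stood at 95.4 and 91.3 CPM (0.957, 0.912 to 1.00), Il4ra at 244.5 and 242.8 CPM (0.993, 0.964 to 1.02), Il13ra1 at 164.9 and 161.2 CPM (0.978, 0.943 to 1.01) and Areg at 67.0 and 63.7 CPM (0.950, 0.897 to 1.01). The median log2 ratio of the 9 genes was −0.64, beside 0.03 over all measured genes. The Areg sum joined sources that went in opposite directions: without the tumour-like cells it was 48.4 and 29.5 CPM (0.609, 0.562 to 0.661).

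Interleukin-5, the growth factor of eosinophils, came mainly from the cluster led by Ctla2a, which held 94.2% of the library's Il5 UMIs in vehicle and 75.9% in Momordicine-I. In that cluster 18 of 65 cells carried 146 UMIs in vehicle and 7 of 47 cells carried 44 UMIs in Momordicine-I. The level was 286 and 108 CPM, a ratio of 0.377 (0.263 to 0.531). Few cells set these sums, since the highest cell gave 36 and 25 UMIs, or 24.7% and 56.8% of them. Without the highest cell of each library the ratio was 0.215, and with each cell's CPM weighted equally it was 0.648. Treg-like cells followed far behind at 5.02 and 3.62 CPM, and Momordicine-I cells of the basophil-like class gave 0 UMIs. The cluster's part of the whole library's Il5 level was 4.40 and 1.09 CPM. That ratio of 0.248 is the product of its smaller share of UMIs (0.659) and its lower level (0.377).

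Interleukin-13, which acts on epithelium, smooth muscle and macrophages, had 2 main sources. In the cluster led by Ctla2a it stood at 166 and 48.9 CPM, from 85 UMIs in 12 cells and 20 UMIs in 6 cells, a ratio of 0.294 (0.171 to 0.483). In basophil-like cells it stood at 265 and 398 CPM, from 124 UMIs in 13 cells and 118 UMIs in 10 cells, a ratio of 1.5 (1.16 to 1.95). The basophil-like difference was smaller with each cell weighted equally (1.03), with cells thinned to 2000 UMIs (1.09) or without the highest cells (1.30). The share of the library's Il13 UMIs held by the cluster led by Ctla2a was 35.7% and 11.8%, and that of basophil-like cells 52.1% and 69.8%. In vehicle the basophil-like interval (221 to 316 CPM) lay above that of the cluster led by Ctla2a (133 to 206 CPM). Mast cell-like cells stood at 15.4 and 156 CPM in 5 and 14 cells.

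Interleukin-4, the cytokine that turns B cells to IgE and IgG1 and macrophages to the alternative state, was mainly a transcript of basophil-like cells. They held 77.3% and 86.8% of the Il4 UMIs, at 691 and 776 CPM, from 41 of 64 and 26 of 46 cells, and the level differed little (1.12, 0.944 to 1.33). The class itself held less of the library's UMIs (0.522), so its part of the whole Il4 level was 9.73 and 5.71 CPM (0.586). Mast cell-like cells came next at 169 and 87.6 CPM. The cluster led by Ctla2a stood at 43.0 and 9.78 CPM, from 22 UMIs in 12 cells and 4 UMIs in 2 cells (0.227, 0.0569 to 0.669). That ratio was 0.0771 without the highest cells and 0.344 with equal weights per cell. Naive T-like cells gave 9 and 0 UMIs. Neutrophil-like cells, which should lack the gene, had 1.72 and 0.135 CPM, from 18 cells of 1960 and 2 of 2596. Their ratio of 0.0783 rests on 2 Momordicine-I UMIs and ranged from 0.0119 to 0.312 over 10 alternatives, 7 of which moved it by over 1.5-fold. The basophil protease Mcpt8, at 3842 and 3224 CPM in basophil-like cells, had 0.862 and 0.607 CPM in neutrophil-like cells.

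**Figure D2:**
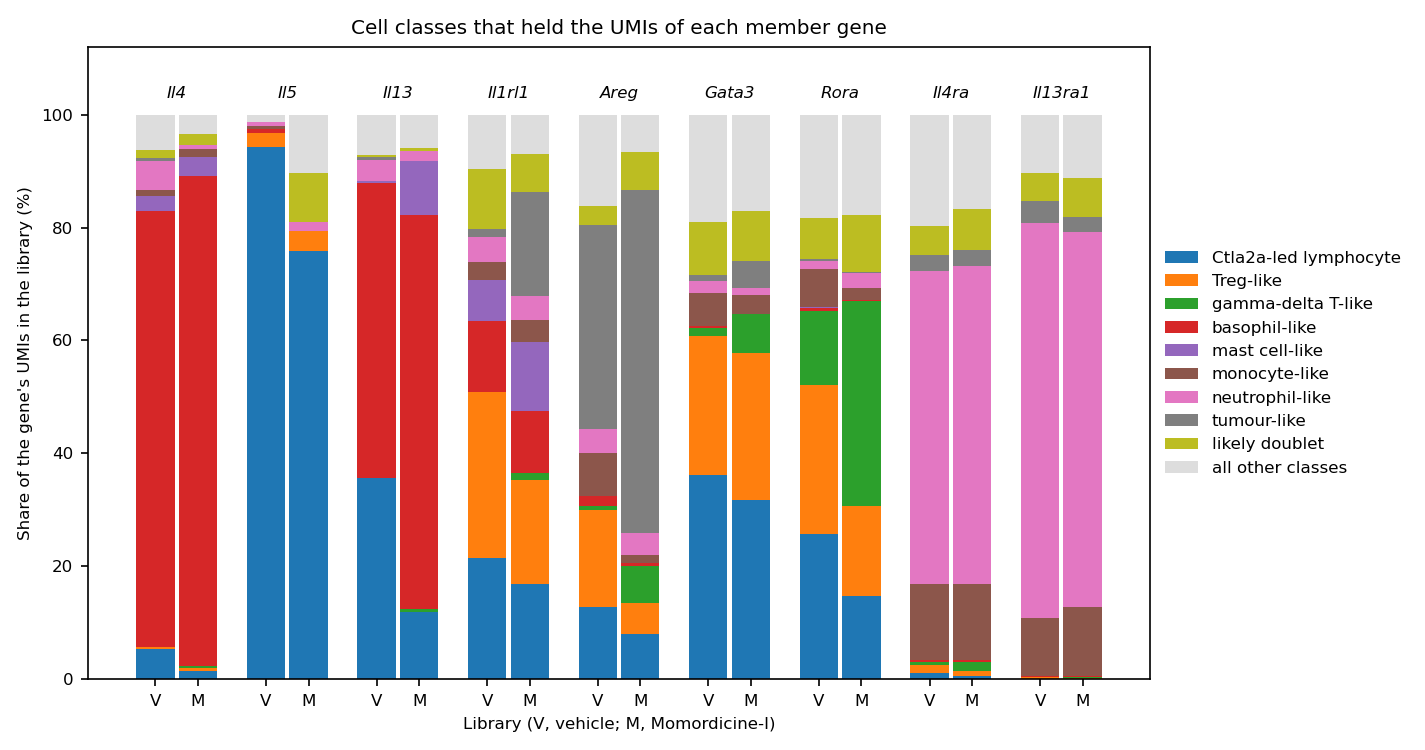
Share (%) of each member's UMIs in a library that each class held, as stacked bars for vehicle (V) and Momordicine-I (M), with likely doublets apart. Tumour-like cells held 36.2% and 60.8% of the Areg UMIs, and basophil-like cells 77.3% and 86.8% of the Il4 UMIs.

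ST2, the receptor that lets a cell sense interleukin-33, was spread over 4 classes. The order in vehicle was mast cell-like (2196 CPM), the cluster led by Ctla2a (836 CPM, 758 to 919), Treg-like (735 CPM, 676 to 797) and basophil-like cells (537 CPM, 473 to 608), and the intervals of the cluster led by Ctla2a and of Treg-like cells overlapped. In Momordicine-I the values were 1841, 641, 516 and 577 CPM, and the intervals of the last 3 overlapped. In Treg-like cells 71 of 95 and 51 of 75 cells held an Il1rl1 UMI, and the ratio was 0.703 (0.608 to 0.811). In the cluster led by Ctla2a 58 of 65 and 38 of 47 did, with a ratio of 0.767 (0.655 to 0.896), and in basophil-like cells the ratio was 1.07 (0.879 to 1.31). Treg-like cells held 29.4% and 18.4% of the library's Il1rl1 UMIs. Their part of the whole level was 17.6 and 7.07 CPM (0.401), a product of a smaller share (0.571) and a lower level (0.703). In tumour-like cells Il1rl1 was higher in Momordicine-I, at 7.22 and 46.6 CPM (6.45, 4.37 to 9.88), but from 4 of 135 and 21 of 277 cells, with 89.3% and 47.2% of the UMIs in 1 cell. That ratio was 31.9 without the highest cells, 20.8 with equal weights per cell and 4.18 with at most 5% mitochondrial UMIs.

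Amphiregulin, a ligand of the epidermal growth factor receptor linked to repair, came from lymphocytes and from tumour-like cells. Treg-like cells stood at 476 and 259 CPM (0.544, 0.446 to 0.662), with 45 and 25 positive cells, and 1 Momordicine-I cell gave 60 of that library's 143 UMIs. Without the highest cells that ratio was 0.360, and with own-score classing of cells 0.321. In the cluster led by Ctla2a the level was 560 and 501 CPM (0.896, 0.745 to 1.08). Tumour-like cells, which had a median of only 980 and 1356 UMIs per cell, stood at 208 and 254 CPM (1.22, 1.12 to 1.33). With at most 5% mitochondrial UMIs their ratio was 0.821. They were 4.01% and 6.34% of cells and held 36.2% and 60.8% of each library's Areg UMIs, from 27 and 71 cells. Their part of the whole level was 24.3 and 38.7 CPM, and that of Treg-like cells 11.4 and 3.55 CPM. The libraries hold cells sorted after staining for CD45, so these shares and parts do not measure the sources within the tumour itself. A few deep cells weighed on the tumour-like sums. The 4 and 21 tumour-like cells with an Il1rl1 UMI had a median of 172680 and 20872 UMIs and held 23.0% and 20.1% of the class's Areg UMIs. Gamma-delta T-like cells stood at 52.5 and 154 CPM, with 3 of 54 and 18 of 175 positive cells (2.94, 1.76 to 5.26). That direction turned at a coarser clustering, where the ratio was 0.675, and without the highest cell of each library it was 5.39. Of the cycling class, 1 vehicle cell held 82.6% of the Areg UMIs.

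GATA3 and RORα, the transcription factors of type 2 lymphocytes, were highest in the cluster led by Ctla2a. Gata3 stood there at 1366 and 1020 CPM (0.747, 0.660 to 0.844), with UMIs in 62 of 65 and 46 of 47 cells. Treg-like cells followed at 595 and 621 CPM (1.04, 0.906 to 1.2), and gamma-delta T-like cells at 85.3 and 85.0 CPM (0.639 to 1.61 for the ratio), where the ratio was 0.385 at Leiden resolution 0.5 and 0.664 with at most 5% mitochondrial UMIs. Gata3 in the cluster led by Ctla2a made up 21.0 and 10.4 CPM of the whole library's level, and Treg-like cells made up 14.3 and 8.51 CPM. Rora stood at 1593 and 1316 CPM (0.826, 0.739 to 0.922) in the cluster led by Ctla2a, at 1365 and 1237 CPM (0.907, 0.812 to 1.01) in gamma-delta T-like cells and at 1047 and 1065 CPM in Treg-like cells. In Momordicine-I the first 2 of these intervals overlapped. The near-level Rora sum over all cells joined less from 2 sources with more from another. The part from the cluster led by Ctla2a was 24.5 and 13.4 CPM, that from Treg-like cells 25.1 and 14.6 CPM, and that from gamma-delta T-like cells 12.5 and 33.2 CPM.

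Within classes, the counts of members past 1.5-fold were read against all genes of the class. In the cluster led by Ctla2a 3 of 8 measured members were lower (Il4, Il5 and Il13) and 0 higher, where 13.2% of 4968 genes were lower and 14.5% higher. In Treg-like cells 1 of 6 was lower (Areg) and 0 higher, against 11.8% lower and 8.94% higher. Basophil-like cells had 2 of 6 lower (Areg and Rora) and 2 higher (Il13 and Il4ra), against 16.0% lower and 12.3% higher. Gamma-delta T-like cells had 1 of 4 higher (Areg) and 0 lower, against 13.2% higher and 13.5% lower. Tumour-like cells had 2 of 5 higher (Il1rl1 and Gata3) and 1 lower (Il13ra1), against 6.66% higher and 11.5% lower. Neutrophil-like cells had 1 of 7 higher (Rora) and 3 lower (Il4, Gata3 and Il1rl1), against 10.8% higher and 5.34% lower. With so few members measured in a class, these counts single out no class.

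Classes that carried the members only at low levels had counts past 1.5-fold that rested on few cells. B-like cells had 3 of 5 higher (Gata3, Rora and Il1rl1) and 0 lower, against 15.6% of genes higher and 12.8% lower, but each of these came from 3 of 95 Momordicine-I cells. Naive T-like cells had Rora higher and Areg lower of 4 (8.83% higher, 19.6% lower), the latter from 28 and 0 UMIs. NK-like cells had Il13ra1 higher and Areg lower of 5 (6.45% higher, 8.92% lower), where all 26 vehicle Areg UMIs lay in 1 cell. Dendritic-like cells had Rora higher (25.0 and 40.5 CPM) and Areg lower of 6 (6.57% higher, 8.75% lower), where 1 cell held 79.4% of the vehicle Areg UMIs. The mixed neutrophil and macrophage-like class had Areg higher and Gata3, Rora and Il1rl1 lower of 6 (8.65% higher, 9.93% lower), from at most 12 cells with a UMI of any of these in a library. Outside the neutrophil-like class as a whole, 4 of 9 were lower (Il4, Il5, Il13 and Gata3) and 0 higher, against 8.10% lower and 6.84% higher, and Il1rl1 stood at 0.672, just short of the fold.

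**Figure D3:**
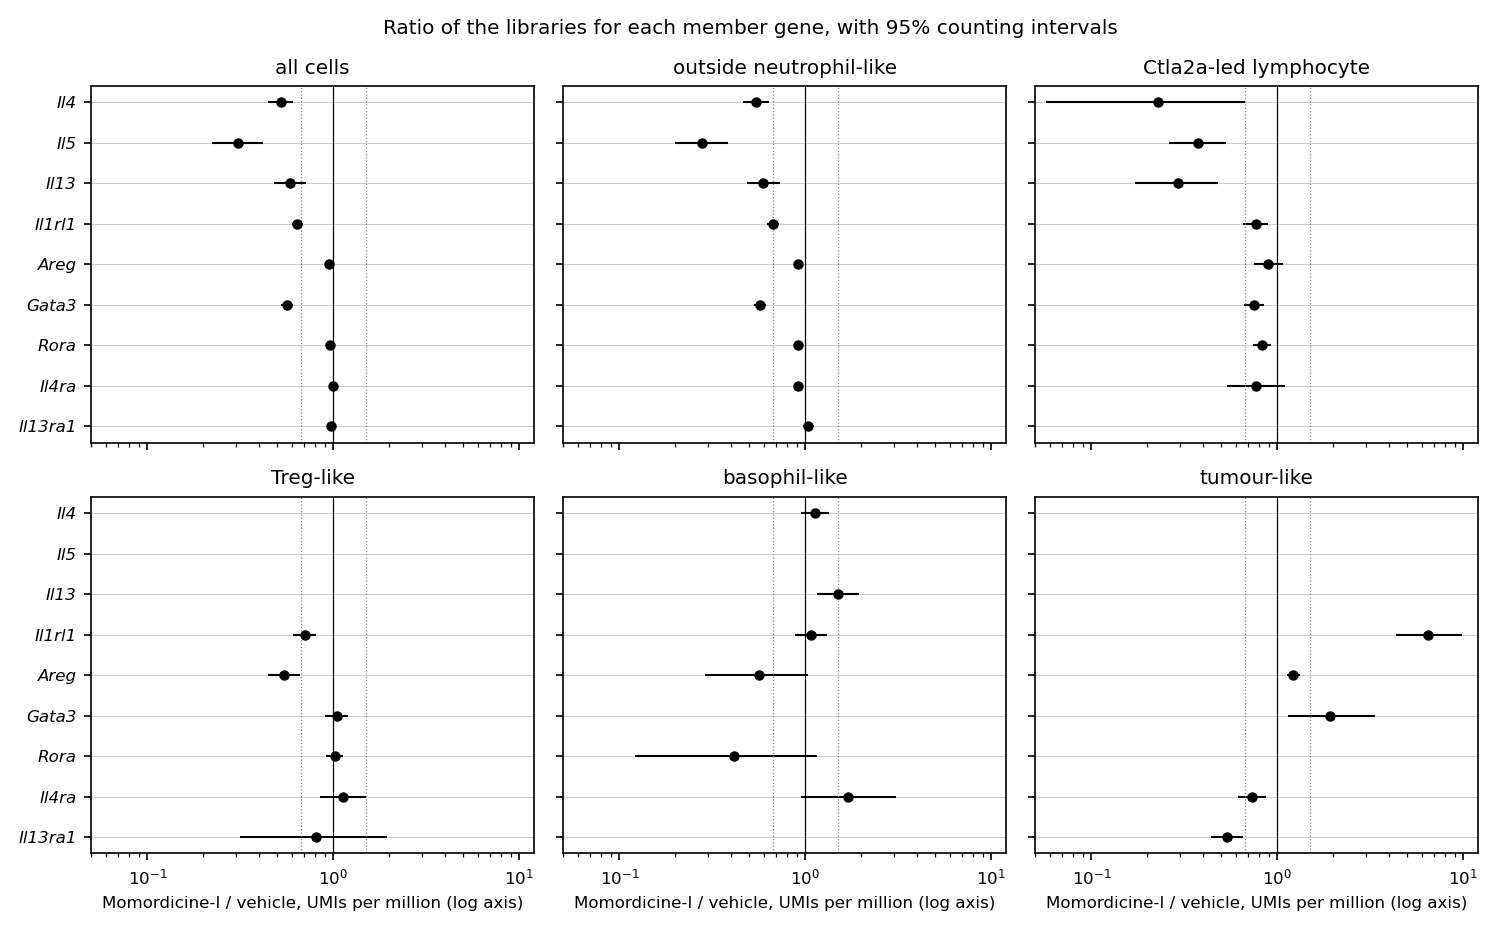
Ratio of Momordicine-I to vehicle CPM (log axis) of each measured member over all cells and within classes, with 95% counting intervals, a line at 1 and dotted lines at 1.5-fold. The 3 cytokines sit below 1 in the cluster led by Ctla2a, and Il4 and Il13 do not in basophil-like cells.

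The cytokines shared cells only in part. In the cluster led by Ctla2a 7 cells held both Il5 and Il13, of 18 and 12 vehicle cells with each, and 3 did, of 7 and 6, in Momordicine-I. All 18 and all 7 Il5-positive cells also held UMIs of Gata3 and Il1rl1, genes that most cells of the cluster carried. Areg was found beside Il1rl1 in 28 of 30 and in 20 of 20 Areg-positive cells of that cluster. In Treg-like cells the pair was found in 38 of 45 and 19 of 25 Areg-positive cells. Il1rl1 was found in 71 of 95 and 51 of 75 cells of the class, which held 88.1% and 94.4% of its Areg UMIs. The 82 and 57 Treg-like cells with a Gata3 UMI held 81.8% and 39.2% of the Areg UMIs. They included 40 of 45 and 17 of 25 Areg-positive cells. The 13 and 18 cells without one had a median of 2067 and 1807 UMIs, and Areg stood there at 1032 and 1708 CPM. In Momordicine-I 1 cell gave 60 of the 87 Areg UMIs of these 18 cells, so that library's split rests largely on it. In basophil-like cells 10 of 13 and 7 of 10 Il13-positive cells also held Il4. Of all cells of that class, 41 of 64 and 26 of 46 did. Il4-positive cells held 49.2% and 97.5% of the class's Il13 UMIs. In vehicle Il13 stood at 186 CPM in Il4-positive cells and at 451 CPM in the others, the latter from 3 cells with an Il13 UMI. Depth bears on every such count, since a cell without a UMI may still have made the transcript.

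**Figure D4:**
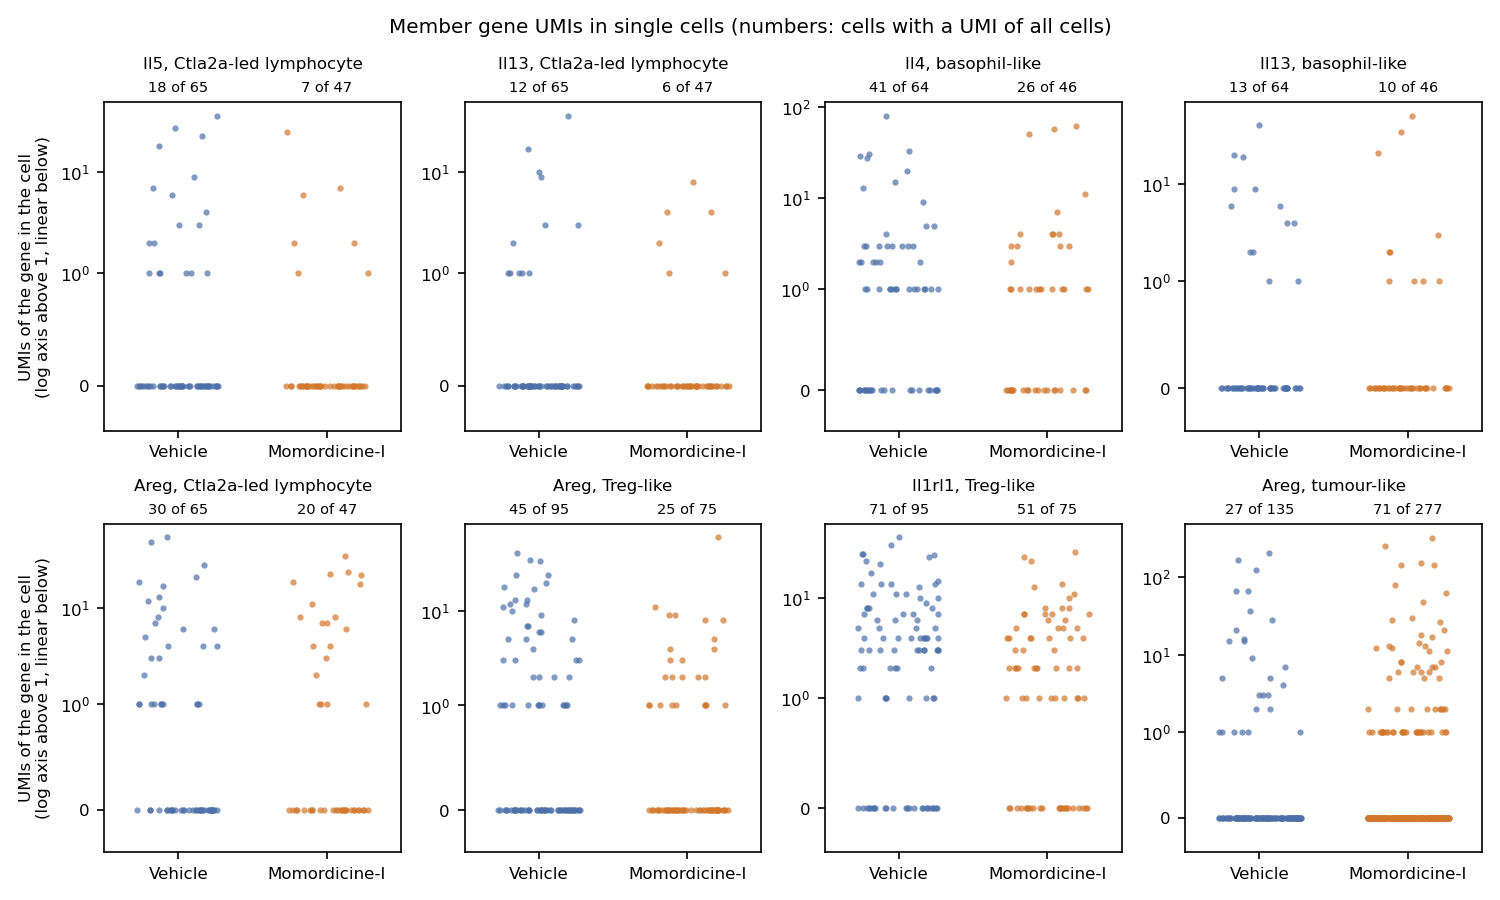
UMIs of the members in each cell (points; log axis above 1 UMI and linear below) of the main source classes of each library, with the number of cells with a UMI above each column. A few cells carry most cytokine UMIs, such as the vehicle cell with 36 Il5 UMIs and the Momordicine-I cell with 25.

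Cells of the cluster led by Ctla2a differed by whether they held T cell receptor RNA, a division made after the values had been seen. Cells without a UMI of Cd3d, Cd3e or Trac numbered 26 and 14, and those with one 39 and 33. Over both libraries the former had more Hs3st1 (479 and 17.1 CPM, without and with T cell receptor RNA) and Il17rb (161 and 27.4 CPM), both ILC2 markers here. They also had more Kit (279 and 24.0 CPM), a mast cell marker here. Hs3st1 was also a leading gene of the basophil-like cluster. Of the other ILC2 markers only Calca (1055 and 257 CPM) was divided in this way, so these genes do not name the cells. The latter had more of the helper T cell genes Cd4 (5.95 and 314 CPM) and Cd28 (8.92 and 632 CPM). Il5 was lower in Momordicine-I in both: 173 and 52.0 CPM without T cell receptor RNA (0.300, 0.112 to 0.685, with 77.1% and 85.7% of the UMIs in 1 cell), and 359 and 135 CPM with it (0.376, 0.252 to 0.550). Il13 stood at 59.5 and 81.7 CPM without T cell receptor RNA (1.37, 0.550 to 3.40) and at 236 and 32.8 CPM with it (0.139, 0.0611 to 0.279). These came from 2 and 3 cells without T cell receptor RNA, where 1 cell held 83.3% and 72.7% of the UMIs. With it they came from 10 and 3 cells, where 1 cell held 49.3% and 44.4%. Il4 came to 3 and 0 UMIs without it, where 3 counts would be 22.3 CPM in Momordicine-I, and to 61.4 and 14.6 CPM with it. Gata3, Rora, Il1rl1 and Areg had the higher ratios in the cells without T cell receptor RNA. Without T cell receptor RNA, Gata3 stood at 1169 and 1256 CPM (1.07, 0.876 to 1.31), Rora at 1680 and 2274 CPM (1.35, 1.16 to 1.58), Il1rl1 at 728 and 661 CPM (0.908, 0.690 to 1.19) and Areg at 446 and 773 CPM (1.73, 1.29 to 2.32). With it, Gata3 stood at 1494 and 904 CPM (0.605, 0.516 to 0.708), Rora at 1536 and 846 CPM (0.551, 0.469 to 0.646), Il1rl1 at 905 and 631 CPM (0.696, 0.573 to 0.845) and Areg at 634 and 368 CPM (0.581, 0.452 to 0.742). Among cells without T cell receptor RNA 1 cell held 31.1% and 33.7% of the Areg UMIs, and among those with it 28.1% and 22.8%. For Rora these shares were 13.9% and 21.6%, and 10.1% and 19.0%. The intervals of all 7 of these members lay below 1 in the cells with T cell receptor RNA, and only that of Il5 did in the cells without it. The difference between the divisions was not tested. A cell without such a UMI may still be a T cell, and a cell with one may not be.

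**Figure D5:**
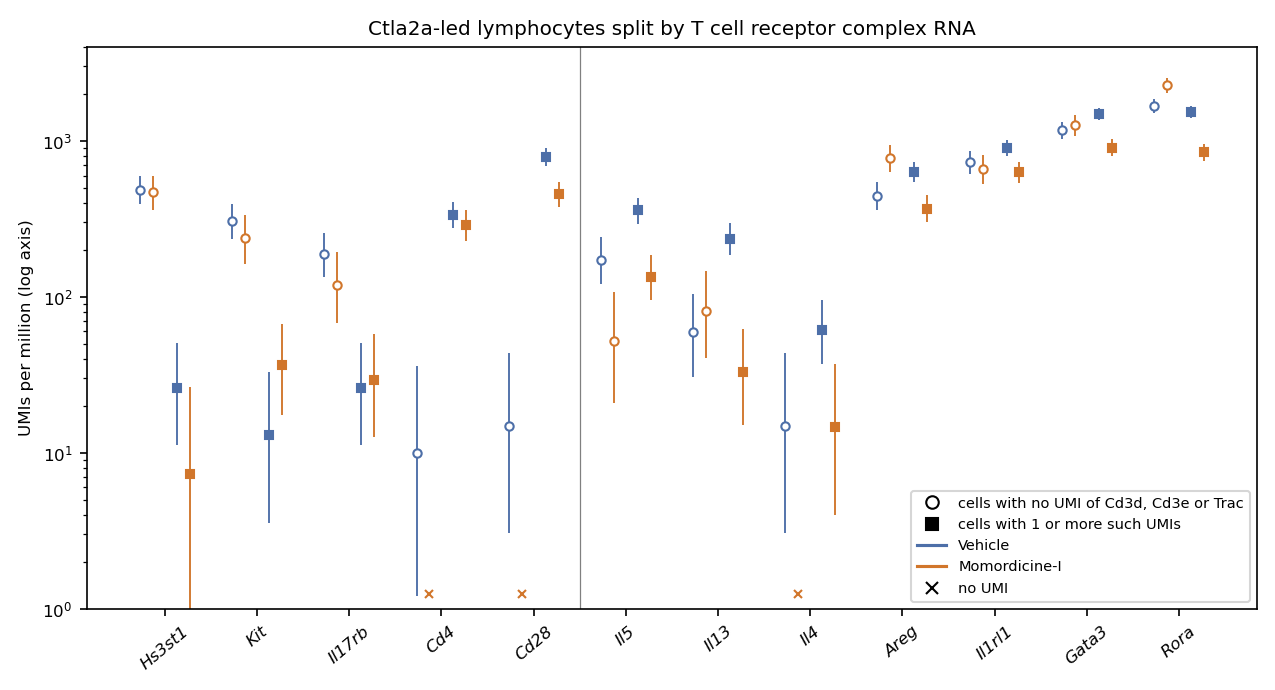
Level (CPM, log axis, 95% counting intervals) of members and marker genes in cells of the cluster led by Ctla2a without and with a UMI of Cd3d, Cd3e or Trac, by library. Areg and Rora are higher in Momordicine-I in the 26 and 14 cells without such a UMI and lower in the 39 and 33 cells with one.

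The receiving side was myeloid. IL-4Rα, the chain shared by the interleukin-4 and interleukin-13 receptors, stood at 352 and 373 CPM in neutrophil-like cells (1.06, 1.02 to 1.10), which held 55.4% and 56.4% of its UMIs. Monocyte-like cells stood at 396 and 303 CPM (0.765, 0.705 to 0.829), the mixed neutrophil and macrophage-like class at 335 and 304 CPM, and the small mixed neutrophil and fibroblast-like class highest at 477 and 454 CPM. Lymphoid classes had it at lower levels, with 178 and 191 CPM in naive T-like, 146 and 165 CPM in Treg-like, 104 and 123 CPM in B-like and 78.7 and 78.0 CPM in NK-like cells. Il4ra was thus widely present in both libraries. Il13ra1, the chain that makes the type II receptor, was more restricted: 300.1 and 291 CPM in neutrophil-like cells, with 70.0% and 66.4% of its UMIs, 203 and 183 CPM in monocyte-like cells (0.902) and 62.2 and 66.7 CPM in dendritic-like cells (1.07, but 0.574 with thinned cells). Naive T-like, Treg-like, NK-like, B-like and gamma-delta T-like cells had at most 20.1 CPM of it. In tumour-like cells Il13ra1 stood at 54.9 and 29.5 CPM (0.537) and Il4ra at 60.6 and 44.3 CPM (0.731). With thinned cells these ratios were 0.268 and 1.29, and with equal weights per cell 0.333 and 0.436.

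In monocyte-like cells 4 of 6 measured members were lower and 0 higher, against 10.1% of genes lower and 5.31% higher. The 4 were Gata3 (40.6 and 9.94 CPM), Rora (77.9 and 18.3 CPM), Il1rl1 (23.6 and 13.9 CPM) and Areg (60.5 and 7.86 CPM), of which the first 2 are lymphocyte genes. T cell receptor RNA in these cells moved with them, from 77.2 to 24.1 CPM (Cd3d, Cd3e and Trac), and its part in the result was not tested.

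Genes of the pathway around the members were taken from 8 lists. Of the alarmins, their receptors and co-stimulatory inputs of type 2 cells, 1 of 12 measured genes was higher over all cells and 0 were lower, against 6.78% and 6.90% of all genes. Tumour-like cells carried the alarmins Il33 (79.6 and 62.7 CPM) and Tslp (33.0 and 28.3 CPM). In the cluster led by Ctla2a, where 13.2% of all genes were lower and 14.5% higher, 2 of 8 were lower, but both intervals included 1. They were the interleukin-25 receptor chain Il17rb (90.0 and 58.7 CPM, 0.652, 0.381 to 1.09) and the co-stimulatory ligand Icosl (0.625, 0.261 to 1.40). Il17rb was found in 14 of 65 and 15 of 47 cells. The survival receptor Il7r (1027 and 1037 CPM) and Il2ra (612 and 638 CPM) were near level in that cluster. Of the other cytokines of type 2 cells, 1 of 6 was higher there and 3 lower. Calca, the calcitonin gene-related peptide, stood at 233 and 944 CPM (4.05, 3.29 to 5.02), and Tnfsf11 at 256 and 134 CPM (0.525). Ccl1 stood at 338 and 51.4 CPM, but 1 vehicle cell held 85.5% of its vehicle UMIs. Calca was also divided by T cell receptor RNA, at 253 and 2259 CPM without it (8.94, 6.63 to 12.3) and 220 and 299 CPM with it. The highest cell held 33.3% and 33.2% of the Calca UMIs without it, and 42.6% and 30.5% with it.

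Transcription factors of type 2 lymphocytes were lower in 5 of 12 and higher in 0 of 12 in the cluster led by Ctla2a (13.2% and 14.5% of all genes), with a median log2 ratio of −0.34 beside 0.05 over all genes. Junb, an activator protein 1 subunit that acts at type 2 cytokine genes, stood at 6414 and 2827 CPM (0.441, 0.412 to 0.471). Irf4, a factor induced by antigen receptor signals, stood at 84.1 and 14.7 CPM (0.174). Among receptor signalling genes 1 of 10 was lower in that cluster, near the share of all genes, the feedback inhibitor Socs1 (137 and 90.5 CPM, 0.661). In monocyte-like cells 4 of 10 were lower, namely Socs1 (40.2 and 17.8 CPM, 0.443), Cish (0.646), Jak2 (0.654) and Irs2 (0.611), and 0 were higher, against 10.1% and 5.31% of all genes. In Treg-like cells the interleukin-2 receptor chain Il2ra stood at 1683 and 1232 CPM (0.732), Penk, which encodes enkephalin, at 467 and 243 CPM (0.520) and Il10 at 92.9 and 43.5 CPM (0.468). Il10 came from 13 and 9 cells, with 43.2% and 33.3% of its UMIs in 1 cell. Of the same cytokine list, Calca had 21 and 0 UMIs there, while Tnfsf11 (1.55), Csf2 (1.44) and Csf1 (1.25) had ratios above 1. Of all genes in Treg-like cells 11.8% were lower and 8.94% higher.

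Genes that interleukin-4 and interleukin-13 are known to induce in myeloid and B cells did not go one way. Over all cells 4 of 16 were higher (Chil3, Ccl22, Ccl24 and Clec10a) and 3 lower (Retnla, Fcer2a and Alox15), against 6.78% and 6.90% of all genes. Chil3, a chitinase-like protein, stood at 2344 and 3483 CPM in monocyte-like cells (1.49) and at 100.3 and 507 CPM in neutrophil-like cells (5.05). Retnla, which encodes RELMα, stood at 161 and 6.48 CPM in monocyte-like cells (0.0402), and Arg1, which encodes arginase 1, at 489 and 626 CPM (1.28). On the side of amphiregulin, 5 of 10 measured genes for its receptor, its sheddases and related ligands were lower in tumour-like cells and 0 higher, against 11.5% and 6.66% of all genes. These were Egfr (16.5 and 9.61 CPM, 0.582), the sheddases Adam17 (0.643) and Adam10 (0.604), and the ligands Hbegf (0.659) and Btc (0.491). A few deep cells weighed on the tumour-like sums, and these 5 ratios were not recomputed under the alternative settings.

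Likeness to each member was measured across 41 sums (cluster by library) among 10874 genes with enough UMIs. The values are Pearson correlations of log2(CPM + 10), given as a description, and the sums share libraries and cluster definitions. Il4 was most like Cd200r3 (0.985), Cyp11a1 (0.973) and Slc18a2 (0.962), and Il13 most like Hs3st1 (0.932), Il4 (0.929) and Cd200r3 (0.920). Il5 was most like Slc17a6 (0.934), Ccl1 (0.891) and Lgals7 (0.843), and Il1rl1 most like Ptgir (0.865), Neb (0.834) and Cd200r1 (0.833). Gata3 went with Xlr4a (0.955), Xlr4b (0.932) and Slain1 (0.929), and Rora with Pdcd1 (0.976), Icos (0.961) and Il2ra (0.954). Areg had lower values, with Ptpn13 (0.885), Zbtb38 (0.856) and Creb3l2 (0.852). Il4ra went with Socs3 (0.938), Arnt (0.926) and Tet2 (0.924), and Il13ra1 with Tpd52 (0.977), Msrb1 (0.975) and Gabarap (0.972).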

How the data were processed

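The deposited matrices hold whole-number UMI counts per gene and barcode, 1 per library, made by the authors with Cell Ranger 6.0.2 on mm10, per the submitters' processing notes (10x 3' chemistry v3.1, per the labels' protocols). The filters on barcodes removed 25 and 26 barcodes with under 200 genes and 253 and 297 with over 10% mitochondrial UMIs, leaving 33179710 and 40284090 UMIs, and 7 of the kept barcodes occurred in both libraries. Cells were clustered with scanpy 1.11.5 (2000 variable genes without the 9 members, 30 principal components, 15 neighbours, Leiden resolution 1.0) in Python 3.11.15, with igraph 0.11.9, scikit-learn 1.9.0 and scipy 1.17.1. Doublets were scored by nearest neighbours among simulated doublets, and the 91 and 153 likely ones were kept in sums over all cells, with an alternative that leaves them out, and were placed in no class.

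Counts were summed per class and library. Ratios have exact conditional binomial intervals, levels exact Poisson intervals and shares Clopper-Pearson intervals at 95%. A gene was measured in a class with at least 20 UMIs over both libraries, and called higher or lower at 1.5-fold. No test was possible with 1 library per group. The ratio, its interval and the calls were tested on simulated counts with known answers, drawn independently for each gene. That simulation held no cells, so it does not bear on UMIs that lie together in 1 cell. The cluster led by Ctla2a and the basophil-like class have fewer than 50 Momordicine-I cells, under the minimum set at the start, and are given all the same. The members and lists were chosen with earlier results of these data known. The text names the 9 members, of each list up to 4 genes whose ratio interval lay farthest from 1 or that had most UMIs, and the 3 genes most alike to each member. Other named genes were chosen after their values were seen. Alternatives were other doublet, mitochondrial, clustering, weighting and thinning settings.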

Additional observations from a re-analysis of the deposited data

How the results depend on the processing

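Of 142 alternative values of the 18 results that answer a comparison, 114 moved by less than the counting interval, 28 moved further and 0 turned in direction as a called value. Of 427 values of 44 other results, 60 moved and 1 turned, the Areg log2 ratio in gamma-delta T-like cells (−0.57 at Leiden resolution 0.5). Values are log2 ratios. Over all cells, with each cell's CPM weighted equally, they were −1.11 for Il13, 0.038 for Il4ra, 0.096 for Il13ra1, 0.014 for Rora and −0.31 for Areg. With cells thinned to 2000 UMIs (2920 and 3733 cells, leaving out 444 and 637 shallower ones) they were −1.09 for Il13, 0.080 for Il4ra, 0.068 for Il13ra1, −0.97 for Gata3, −0.93 for Il1rl1 and −0.54 for Areg. At 5% mitochondrial UMIs they were −1.01 for Gata3, −0.76 for Il1rl1 and −0.50 for Areg. Without the tumour-like class they were 0.051 for Il4ra, 0.043 for Il13ra1, −0.86 for Il1rl1 and −0.71 for Areg. Il5 in the cluster led by Ctla2a was −2.22 without the highest cells and −0.63 with equal weights. In Treg-like cells Il1rl1 was −0.20 with equal weights, and Areg −1.64 with cells classed by their own score, −1.47 without the highest cells and −1.23 with thinned cells. Own scores gave 0.42 for Il4 in basophil-like cells, and for shares of cells −0.094 for the cluster led by Ctla2a (by ILC2 markers, which also took in gamma-delta T-like cells) and 1.79 for gamma-delta T-like cells, which stood at 0.52 at Leiden resolution 0.5. The cause of these moves was not tested. Leiden resolution 0.5 gave no value for the cluster led by Ctla2a, which merged with gamma-delta T-like cells. Leaving out likely doublets or tumour-like cells, the division by T cell receptor RNA and the use of classes under 50 cells were chosen after seeing the data. No paired analysis was possible because each group has 1 library. Depth limits the cytokines most: Il4, Il5 and Il13 rest on 418, 155 and 238 vehicle UMIs and 265, 58 and 169 Momordicine-I UMIs.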
